A study of Mus musculus with 4 samples.

Results

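RING finger (RNF) ubiquitin ligases were examined in mouse peritoneal macrophages given lipopolysaccharide (LPS). The members were all genes whose array symbol starts with *Rnf* or *Lonrf* followed by a digit, which gave 80 of the 19938 genes measured, on 93 of 26423 probes. The symbol *Rnf219* is now *Obi1*, and the other members keep their names. The rule used symbols and no measured value, but it was set with earlier results of these data known.

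The cells were peritoneal macrophages of C57BL/6 mice, which the methods give as male and 6 to 8 weeks old. Of the 4 samples, 2 received PBS and 2 received 100 ng/ml LPS, both for 6 h, and no genetic change is given for either group. The labels call them biological replicates 1 and 2 of a group and name no mouse or culture, so the p-values cover the spread among the arrays, which may be technical. Each RNA was labelled with Cy5 and run on a separate Mouse OneArray Plus microarray.

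A RING finger is a zinc-binding fold that holds a ubiquitin-conjugating enzyme (E2) close to a substrate, so that ubiquitin passes to the substrate. Chains joined through lysine residues can mark a protein for the proteasome or build a signalling platform, and linear chains are made by a specialised complex. RNF genes are named for this fold and not for shared descent, and they act in the nucleus, at the endoplasmic reticulum (ER), in endosomes and on innate immune adaptors. In macrophages, LPS is sensed by Toll-like receptor 4, whose signalling through NF-κB and interferon factors is controlled by ubiquitin at many steps.

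LPS replicate 1 was the dimmest array, with a median raw signal of 683 against 1026 to 1054 on the other 3, and 55.8% of its probes were above background (detection p under 0.05) against 61.7% to 63.3%. The cells showed a response to LPS on both treated arrays: *Il6* was at 8.08 and 9.13 with PBS and 16.82 and 17.03 with LPS (log2 signal). All 5 measured macrophage markers were above background on all 4 arrays and 0 passed the test. *Csf1r* (17.42 and 16.96 with PBS, 16.24 and 15.84 with LPS) and *Cd68* were lower on both LPS arrays and *Mertk* higher. *Adgre1* and *Itgam* overlapped. Of 3 large peritoneal macrophage markers 0 passed, and *Gata6* and *Icam2* overlapped. *Timd4*, above background on 1 PBS array and both LPS arrays, was at 9.80 and 8.83 with PBS and at 12.38 and 11.34 with LPS. Of 19 markers of other peritoneal cell types, 7 were above background on all 4 arrays and 9 on none, and 0 passed the test. *Cd79a* of B cells, *Cpa3* of mast cells and *Zbtb46* of dendritic cells were above background on all 4. Among those above it on none were *Ms4a1* of B cells, *Kit* of mast cells, and *Flt3* and *Xcr1* of dendritic cells. So were *S100a8* of neutrophils, *Ncr1* and *Klrb1c* of NK cells and *Col1a1* of fibroblasts. *Ngp* of neutrophils was above it on 1 PBS and 1 LPS array, and *Gzma* of NK cells on 1 LPS array. The 3 T cell markers were above background on all arrays and differed in direction. *Cd3e* was at 12.32 and 12.27 with PBS and at 11.73 and 12.01 with LPS. *Cd3g* was at 9.88 and 9.82 with PBS and higher with LPS, at 10.18 and 10.16, and *Cd2* overlapped between the groups. *Upk3b*, a mesothelial marker, was at 13.12 and 14.87 with PBS and 12.23 and 14.80 with LPS. *Msln*, another, was above background on 1 PBS array only, at 9.30 and 8.79 with PBS and 8.37 and 8.55 with LPS. The part of these other cells in the results below was not tested.

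After 6 h of LPS, 7 of the 80 members rose and 2 fell. The genes that rose were *Rnf213*, *Rnf31*, *Rnf114*, *Rnf24*, *Rnf139*, *Rnf135* and *Rnf214*, by 2.49-fold to 9.76-fold, and those that fell were *Rnf144b* by 3.77-fold and *Rnf157* by 3.57-fold. They include ligases of the interferon response, of linear ubiquitin chains and of RNA sensing, as well as membrane ligases. By the RefSeq annotation, *Rnf213*, *Rnf135* and *Rnf157* lie on chromosome 11, *Rnf114* and *Rnf24* on 2, *Rnf214* on 9, *Rnf144b* on 13, *Rnf31* on 14 and *Rnf139* on 15. In bulk RNA, fewer cells of a type and less RNA per cell cannot be told apart. A member was called when its adjusted p was under 0.05, from limma with Benjamini-Hochberg adjustment over all 19938 genes. The 7 members that rose are 8.75% of the family, where 3.22% of all genes rose, and the 2 that fell are 2.5%, where 2.32% of all genes fell. In either direction, 11.2% of the members and 5.54% of all genes were called.

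Each array was left out in turn. The lone array of a group is then assumed to vary like those of the other group, which leaves 1 residual degree of freedom. Without PBS replicate 1, 0 members passed in either direction, and without PBS replicate 2 *Rnf213* alone passed. Without LPS replicate 1, *Rnf213* and *Rnf144b* kept their calls and *Lonrf3* and *Rnf166* were called lower too. Without LPS replicate 2, *Rnf213*, *Rnf31*, *Rnf114* and *Rnf24* kept theirs, *Rnf212* was called higher, and *Rnf5* and *Rnf146* were called lower. The sign of the 9 calls was the same in each of these fits, with log2 fold changes of, for example, 1.70 to 1.91 for *Rnf31*, 1.66 to 1.83 for *Rnf114* and 1.26 to 1.38 for *Rnf214*. Wider ranges were seen for *Rnf213*, from 2.96 to 3.61, and for the falls, from −2.35 to −1.48 for *Rnf144b* and from −2.13 to −1.55 for *Rnf157*. When arrays were scaled to the 75th percentile instead of quantile-normalized, 4 members rose and 0 fell. Among all 19938 genes, 398 rose and 131 fell with this scaling, against 642 and 462 with quantile normalization. With cyclic loess 7 members rose and 0 fell (all genes 532 and 259). With the signals of the second deposited table it was 2 and 0 (all genes 327 and 111). With no scaling 1 member rose and 3 fell (all genes 254 and 178).

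Values below are quantile-normalized log2 signals, given as PBS replicates 1 and 2 and then LPS replicates 1 and 2, and changes are log2 fold changes of LPS over PBS with their standard error (SE). Levels of different genes come from different probes and are not compared.

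**Figure D1:**
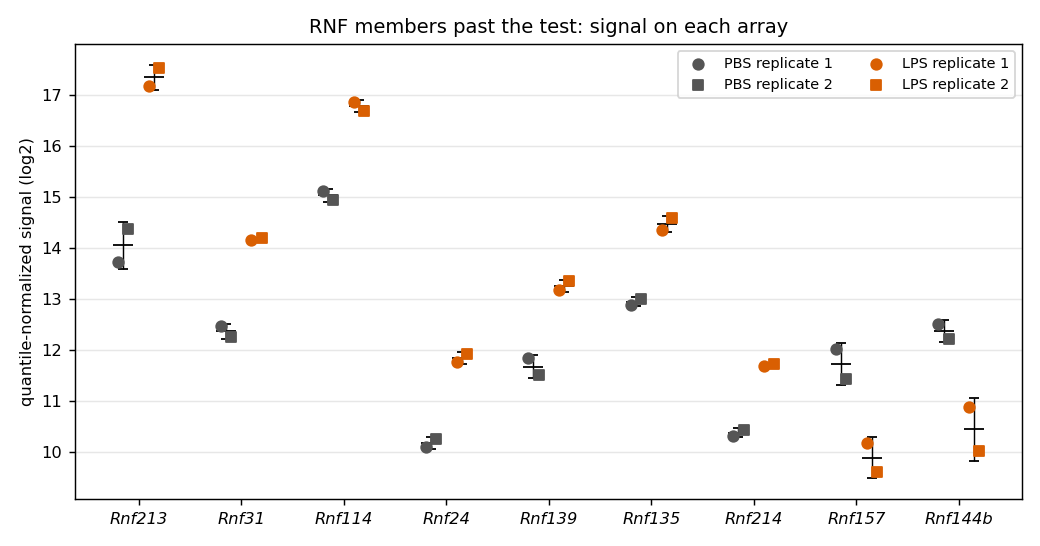
Quantile-normalized log2 signal (y axis) of the 9 members past the test on each of the 4 arrays. Grey marks PBS and orange LPS, circles replicate 1 and squares replicate 2, and black bars give the mean and SD of 2 arrays. The LPS points lie above the PBS points in 7 genes and below them in 2.

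Over the whole family, changes went both ways. The median log2 fold change of the 80 members was 0.05, against 0.04 over all genes, with 41 members above 0 and 39 below. The median size of the change, whatever its sign, was 0.56 in the members and 0.40 over all genes. Both LPS arrays were above both PBS arrays for 32 members, or 40%, against 32.2% of all genes. Both were below for 27 members, or 33.8%, against 27.5% of all genes, and the groups overlapped for 21.

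Of the 80 members, 67 were above background on all 4 arrays, 4 on some and 9 on none. Among these 67, 7 rose and 2 fell, the median log2 fold change was −0.11 and the median size was 0.52. Among the 11903 genes of the array with this property, 525 rose and 328 fell. Their median log2 fold change was 0.008 and the median size was 0.45. At an unadjusted p under 0.05, 20 members, or 25%, had a higher value after LPS, against 12% of all genes, and 15, or 18.8%, a lower one, against 13.9% of all genes. For 45 of the 71 members that did not pass, the interval of the change held 0. Changes of 2-fold or more that did not pass were found for 2 members with a higher and 8 with a lower value. Whether passed or not, 9 members were higher and 10 lower by 2-fold or more. Among all 19938 genes, 1064 were higher and 1833 lower by as much.

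**Figure D2:**
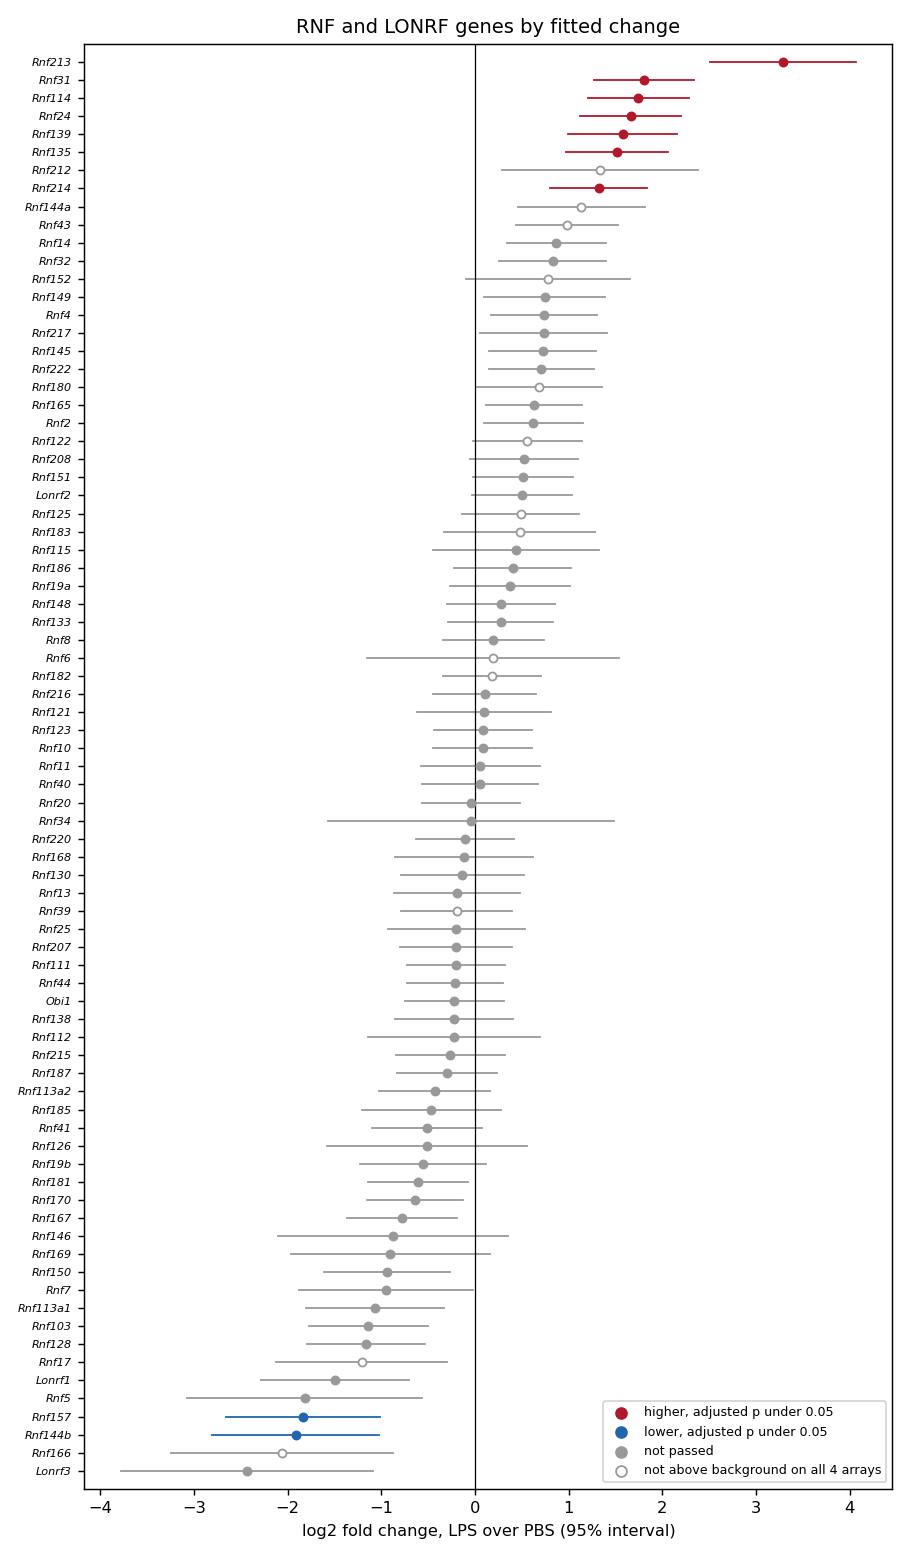
Log2 fold change of LPS over PBS (x axis) of the members, ordered by change, with 95% intervals. Red marks members that rose, blue members that fell and grey those that did not pass, and open points were not above background on all 4 arrays. Fitted changes run from −2.43 (*Lonrf3*) to 3.29 (*Rnf213*).

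The role groups below were chosen with earlier results of these data known. For each of their counts, the shares over all genes are 3.22% that rose and 2.32% that fell. The group of innate sensing and NF-κB control held 14 members, of which 3 rose and 0 fell. *Rnf213*, a very large interferon-induced ligase with an ATPase core that can place ubiquitin on bacterial LPS, was at 13.73 and 14.37 with PBS and at 17.16 and 17.51 with LPS. The treated arrays were far above the controls. The log2 fold change was 3.29 ± 0.30 (SE, 2 arrays a group), or 9.76-fold, with an interval of 2.51 to 4.06 and an adjusted p of 0.00907. With 1 array left out the log2 fold change stayed between 2.96 and 3.61, with an adjusted p of 0.0343 to 0.0609, the highest of these without PBS replicate 1.

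The promoter of *Rnf213* is shown because it was the 1 of 6 raised members with a promoter window whose window held a match to the NF-κB consensus. The window runs from 250 bases before to 50 after the start site (RefSeq, GRCm38.p6, chr11:119389849-119390148, plus strand), the capitals mark the match, and the match starts 77 bases before the start site.
*Rnf213* promoter: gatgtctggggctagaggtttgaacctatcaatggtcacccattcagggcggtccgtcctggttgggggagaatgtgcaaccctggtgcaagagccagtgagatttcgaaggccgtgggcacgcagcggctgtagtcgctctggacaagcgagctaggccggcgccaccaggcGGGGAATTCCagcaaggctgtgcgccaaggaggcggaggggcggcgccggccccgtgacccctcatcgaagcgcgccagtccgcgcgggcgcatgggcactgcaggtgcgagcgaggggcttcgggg

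Promoter windows were found for 62 of the 80 members, not for *Rnf139*. The consensus was searched on both strands, and 9 of the 62, or 14.5%, held a match, against 9.55% of 27025 genes with a window. The members with a match lay on both sides of 0, among them *Rnf4* (0.74), *Rnf145* (0.73), *Rnf2* (0.62), *Rnf7* (−0.95) and *Rnf166* (−2.06), none of which passed the test. To show how these matches read, the stretches around those of *Rnf145* (chr11:44518837-44518876, plus strand), *Rnf4* (chr5:34336226-34336265, plus strand), *Rnf7* (chr9:96478651-96478690, minus strand) and *Rnf166* (chr8:122476253-122476292, minus strand) are printed along the strand of the gene, with the match in capitals.
*Rnf145*: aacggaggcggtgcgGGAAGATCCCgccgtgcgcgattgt
*Rnf4*: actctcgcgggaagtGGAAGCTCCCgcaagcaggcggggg
*Rnf7*: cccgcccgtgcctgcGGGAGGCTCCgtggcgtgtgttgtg
*Rnf166*: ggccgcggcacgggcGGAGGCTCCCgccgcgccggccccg

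The core of the interferon response element, GAAANNGAA on either strand, was in the windows of 5 of the 62 members, or 8.06%, against 9.76% of genes with a window. It was in the window of 0 of the 6 raised and 0 of the 2 lowered members with one. A match is a description of the letters in this window only.

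*Rnf114*, a ligase linked to interferon and NF-κB signalling, was at 15.11 and 14.94 with PBS and at 16.85 and 16.69 with LPS. Both treated arrays were higher, by 1.74 ± 0.21 (SE, adjusted p = 0.0191, and 0.0403 to 0.151 with 1 array left out). *Rnf135*, also called Riplet, modifies the RNA sensor RIG-I and helps to activate it. Its signals of 12.89 and 13.01 with PBS and 14.36 and 14.58 with LPS gave a change of 1.52 ± 0.21 (SE, adjusted p = 0.0266, and 0.0568 to 0.169 with 1 array left out). The groups were well apart in both genes.

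Other ligases of RNA and DNA sensing did not pass. *Rnf125* and *Rnf122*, both reported to turn down RIG-I, were not well above background on any array, so that no level could be given. *Rnf166*, a ligase described in antiviral signalling and autophagy of bacteria, was at 13.13 and 13.28 with PBS and at 11.81 and 10.48 with LPS, and it was above background on 1 of the 2 LPS arrays. Both treated arrays were lower (−2.06 ± 0.46 SE, adjusted p = 0.0744), but they differed from each other by more than 1 log2 unit. Without LPS replicate 1 its change was −2.73 (adjusted p = 0.0333), and without scaling between arrays it also passed (adjusted p = 0.0431).

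*Rnf5*, an ER ligase that targets the adaptors STING and MAVS, was at 15.41 and 15.75 with PBS and at 13.06 and 14.46 with LPS. The change of −1.82 ± 0.49 (SE) did not pass (adjusted p = 0.107), and LPS replicate 1, the dimmest array, was much lower than its partner. It was −2.52 (adjusted p = 0.0318) without LPS replicate 2 and −1.12 (adjusted p = 0.136) without LPS replicate 1. *Rnf185*, a close relative of *Rnf5*, was at 13.03 and 12.38 with PBS and at 12.15 and 12.33 with LPS, which did not pass (−0.47, adjusted p = 0.36). *Rnf34*, which acts on MAVS, was at 13.81 and 14.02 with PBS and at 12.97 and 14.77 with LPS, 1 treated array below and the other above both controls. No direction can be read for it.

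The other members of this group had small or uneven changes that did not pass. *Rnf41*, also called Nrdp1, which acts on MyD88 and TBK1, was at 14.11 and 13.86 with PBS and at 13.61 and 13.33 with LPS, and its change of −0.51 had an adjusted p of 0.238. *Rnf216*, a ligase of Toll-like receptors also called Triad3A, was at 12.32 and 12.50 and then at 12.41 and 12.61. Its change was 0.11, with an interval of −0.44 to 0.65 that leaves room for a modest difference either way, and it turned negative without scaling between arrays. *Rnf11*, a partner of the deubiquitinase A20, was at 13.78 and 14.24 and then at 14.13 and 13.997, a fitted change of 0.05 that turned negative without scaling between arrays. *Rnf138* (−0.22) and *Rnf115* (0.44), a ligase of membrane traffic and antiviral sensing, overlapped between the groups on their brightest probes. A dimmer probe of each, above background on all arrays, did not overlap. For *Rnf115* it was at 14.18 and 13.55 with PBS and at 15.08 and 14.52 with LPS (0.94). For *Rnf138* it was lower on both LPS arrays (−0.37).

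**Figure D3:**
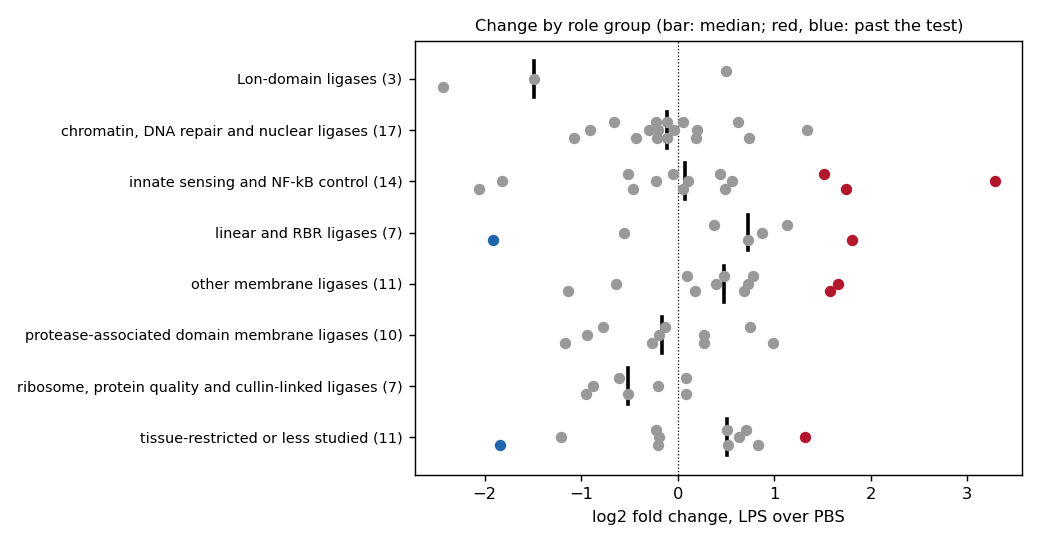
Log2 fold change of LPS over PBS (x axis) of the members of each of 8 role groups, with the number of members in parentheses. Each point is a gene, red for rose, blue for fell and grey for not passed, and black bars are group medians. The group medians run from −1.49 (3 Lon-domain ligases) to 0.73 (7 linear and RBR ligases).

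RBR ligases carry a pair of RING domains around a linking domain and pass ubiquitin through a cysteine of their own. The group described here holds 7 of them and leaves out *Rnf216*, an RBR ligase given above with innate sensing, whose PBS and LPS arrays overlapped. Of these 7, 1 rose and 1 fell, where 3.22% of all genes rose and 2.32% fell. Both LPS arrays were higher than both PBS arrays in 5 and lower in 2. Among all genes, both were higher for 32.2% and lower for 27.5%. *Rnf31*, also called HOIP, is the catalytic subunit of LUBAC, the complex that makes linear chains in NF-κB signalling. It was at 12.47 and 12.27 with PBS and at 14.16 and 14.19 with LPS. The treated arrays nearly coincided and stood above the controls, with a change of 1.81 ± 0.21 (SE), or 3.5-fold (adjusted p = 0.0168, and 0.0425 to 0.14 with 1 array left out).

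*Rnf144b*, an RBR ligase linked to p53 and to control of cell death, went the other way. It was at 12.52 and 12.22 with PBS and at 10.89 and 10.02 with LPS, a change of −1.92 ± 0.35 (SE, adjusted p = 0.0486). The treated arrays were both lower, and with 1 array left out the adjusted p was 0.0461 to 0.219. A dimmer probe of the gene, not above background on 1 PBS array, was at 10.71 and 10.47 with PBS and at 9.95 and 9.09 with LPS (−1.07). Its paralog *Rnf144a*, linked to DNA damage and STING, was not well above background on either PBS array and above it on both LPS arrays. Its measured signals were 8.59 and 8.64 with PBS and 10.03 and 9.47 with LPS (adjusted p = 0.0794). The treated mean was 1.68-fold above the mean of the lowest signals above background on the PBS arrays (9.02 and 8.99). That is no strict lower bound, since a brighter signal can also fail detection, as the dimmer *Rnf144b* probe did on 1 PBS array.

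The other RBR ligases did not pass. *Rnf14*, a coactivator of the androgen receptor that also acts on stalled ribosomes, was at 13.81 and 13.63 with PBS and at 14.60 and 14.57 with LPS, a change of 0.87 (adjusted p = 0.0825). *Rnf217* was at 11.10 and 10.90 and then at 11.47 and 11.99 (0.73, adjusted p = 0.172). *Rnf19a* (0.37, adjusted p = 0.39) and *Rnf19b* (−0.56, adjusted p = 0.253), a pair of related membrane-bound RBR ligases, had values of opposite sign.

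Of 11 other membrane ligases, 2 rose and 0 fell, where 3.22% of all genes rose and 2.32% fell, and 4 were above background on no array. *Rnf24*, a membrane ligase that binds TRP ion channels, was at 10.10 and 10.27 with PBS and at 11.77 and 11.92 with LPS. Its change was 1.66 ± 0.21 (SE, adjusted p = 0.0213, and 0.0487 to 0.15 with 1 array left out). *Rnf139*, also called TRC8, is an ER ligase with a sterol-sensing domain. It was at 11.84 and 11.52 with PBS and at 13.17 and 13.34 with LPS, a change of 1.58 ± 0.23 (SE, adjusted p = 0.0293, and 0.0641 to 0.188 with 1 array left out). In both genes the treated arrays lay above the controls. A dimmer *Rnf139* probe, above background on all arrays, had 9.43 and 9.18 with PBS and 9.89 and 9.95 with LPS (0.61), and with the mean of both probes the gene did not pass (1.09, adjusted p = 0.0558).

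*Rnf145*, an ER ligase of the same subfamily as *Rnf139* and a target of the sterol receptor LXR, was at 14.23 and 13.95 with PBS and at 14.73 and 14.90 with LPS. Its change of 0.73 had an adjusted p of 0.132. *Rnf103*, an ER ligase, was at 13.88 and 13.52 with PBS and at 12.41 and 12.72 with LPS, lower on both treated arrays (−1.14 ± 0.25 SE, adjusted p = 0.0698). *Rnf170*, which targets activated IP3 receptors of the ER, had a change of −0.64 (adjusted p = 0.137).

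Ligases with a protease-associated domain span membranes of endosomes or of the cell surface. Of the 10 measured, 0 rose and 0 fell, with a median log2 fold change of −0.16. *Rnf128*, also called GRAIL and known for its part in T cell anergy, was at 16.43 and 15.96 with PBS and at 15.04 and 15.02 with LPS. The treated arrays nearly coincided below the controls, with a change of −1.16 ± 0.25 (SE, adjusted p = 0.0661). *Rnf149* was at 15.09 and 15.29 with PBS and at 15.71 and 16.16 with LPS (0.74, adjusted p = 0.155). *Rnf150* (−0.94, adjusted p = 0.113) and the endosomal and lysosomal ligase *Rnf167* (−0.78, adjusted p = 0.123) were lower on both treated arrays. *Rnf13*, another endosomal ligase, overlapped on its brightest probe (−0.19). A dimmer *Rnf13* probe also overlapped (−0.03), and another was lower on both LPS arrays (−0.71). *Rnf43*, which removes Wnt receptors from the surface, was not well above background on any array.

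Of 17 nuclear ligases, 0 rose and 0 fell, and the median log2 fold change was −0.11. *Rnf2*, also called RING1B, is the Polycomb ligase of histone H2A. It was at 12.29 and 12.33 with PBS and at 13.02 and 12.84 with LPS (0.62, adjusted p = 0.151). *Rnf4*, which recognises SUMO chains, was at 13.72 and 13.97 with PBS and at 14.49 and 14.68 with LPS (0.74, adjusted p = 0.127). In both genes the treated arrays were higher. *Rnf20* (−0.04) and *Rnf40* (0.05), the partners that ubiquitylate histone H2B, overlapped between the groups, and each changed sign under another scaling.

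*Rnf44* was at 14.55 and 14.50 with PBS and at 14.26 and 14.36 with LPS (−0.21, with a value just above 0 under 75th percentile scaling). *Rnf187*, a coactivator of JUN, was at 14.56 and 14.35 and then at 14.18 and 14.13 (−0.30). *Rnf169*, which binds ubiquitylated chromatin at DNA breaks, had a change of −0.90 (adjusted p = 0.244), and *Rnf6* overlapped, with 9.21 and 10.76 on the LPS arrays. *Rnf113a1* (−1.07, adjusted p = 0.107) and *Rnf113a2* (−0.43, adjusted p = 0.303) are near-identical copies whose RNA the probes may not separate. *Rnf212*, a factor of meiotic crossing-over, was not well above background on either PBS array. Its signals were 7.99 and 8.40 with PBS and 10.06 and 8.99 with LPS (adjusted p = 0.13). The treated mean was 1.44-fold above the mean of the lowest signals above background on the PBS arrays (9.02 and 8.99). LPS replicate 2 lay at that level, so this fold rests on LPS replicate 1 and is no strict lower bound. The log2 fold change was 1.87 without LPS replicate 2 and 0.80 without LPS replicate 1.

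The 7 ligases of ribosomes, protein quality and cullin complexes had a median log2 fold change of −0.51, with 0 that rose and 0 that fell. *Rnf7*, also called RBX2, is the RING partner of cullin 5. It was at 15.47 and 16.44 with PBS and at 15.05 and 14.95 with LPS, lower on both treated arrays (−0.95, adjusted p = 0.186). *Rnf181* was at 15.19 and 15.24 with PBS and at 14.51 and 14.71 with LPS (−0.61, adjusted p = 0.158). *Rnf146*, which recognises poly-ADP-ribose and controls axin, was at 13.82 and 13.70 with PBS and at 12.19 and 13.59 with LPS. Its change of −0.87 (adjusted p = 0.311) rested on LPS replicate 1: it was −1.57 (adjusted p = 0.0476) without LPS replicate 2 and −0.18 (adjusted p = 0.704) without LPS replicate 1. *Rnf126*, which works with BAG6 on misfolded membrane proteins, showed the same uneven pair, with 11.19 and 12.36 after LPS against 12.36 and 12.22 with PBS.

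LONRF proteins join RING fingers to a Lon-type domain. *Lonrf3* was at 14.61 and 14.11 with PBS and at 12.66 and 11.19 with LPS, a fitted change of −2.43 ± 0.53 (SE), with an interval of −3.78 to −1.09. Both treated arrays were lower but lay more than 1 log2 unit apart, and the change did not pass (adjusted p = 0.0689). It was −3.17 (adjusted p = 0.0382) without LPS replicate 1, and −0.97 on a dimmer probe. *Lonrf3* is among the genes that the study chose on these same samples, so its direction here is no independent evidence. *Lonrf1* was at 12.98 and 13.27 with PBS and at 11.98 and 11.28 with LPS (−1.49 ± 0.31 SE, adjusted p = 0.0633, and 0.0477 when dim probes were left out). *Lonrf2*, at 12.88 and 13.09 with PBS and 13.49 on both LPS arrays, had a value on the other side of 0 (0.50 ± 0.21 SE, adjusted p = 0.212).

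Of 11 tissue-restricted or less studied members, 1 rose and 1 fell, where 3.22% of all genes rose and 2.32% fell. *Rnf157*, a ligase studied mainly in neurons, was at 12.03 and 11.44 with PBS and at 10.18 and 9.61 with LPS. Both treated arrays were lower (−1.84 ± 0.32 SE, adjusted p = 0.0444, and 0.0765 to 0.205 with 1 array left out). *Rnf214* was at 10.33 and 10.45 with PBS and at 11.69 and 11.72 with LPS. The pairs were tight and well apart, with a change of 1.32 ± 0.20 (SE, adjusted p = 0.0323, and 0.0646 to 0.199 with 1 array left out). *Rnf32* was at 11.25 and 11.50 with PBS and at 12.09 and 12.31 with LPS (0.83, adjusted p = 0.107), and *Rnf208* had a change of 0.52 (adjusted p = 0.225). *Rnf17*, a germ cell gene, was not well above background on any array.

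**Figure D4:**
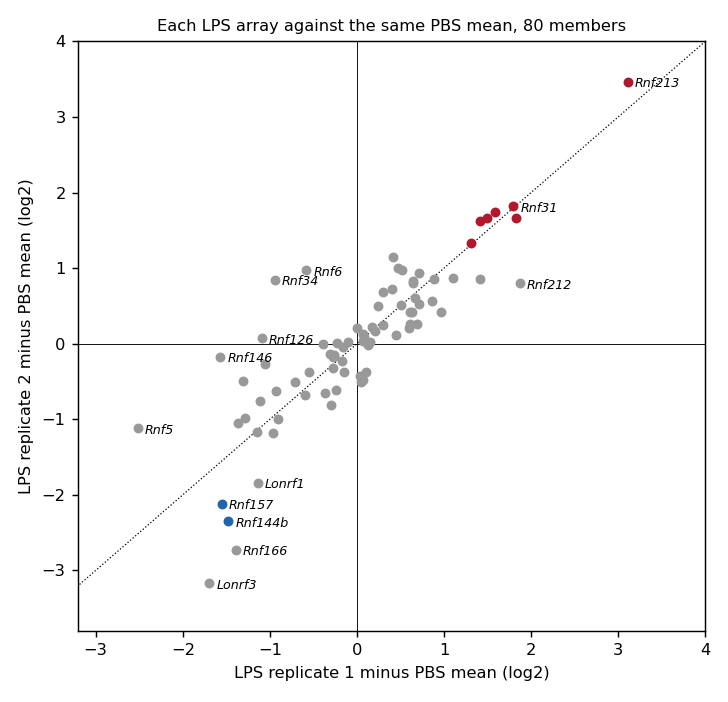
Log2 signal of LPS replicate 1 (x axis) and LPS replicate 2 (y axis), each minus the same mean of the PBS arrays, for the 80 members. Red and blue mark members past the test, and the dotted line marks equal values. *Rnf34*, *Rnf5*, *Rnf146* and *Lonrf3* lie away from it. The axes share the PBS mean, so points near the line are no separate evidence of a change.

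The LPS arrays differed by more than 1 log2 unit for 8 members, *Lonrf3*, *Rnf126*, *Rnf146*, *Rnf166*, *Rnf212*, *Rnf34*, *Rnf5* and *Rnf6*, and the PBS arrays for 0. The median difference between arrays of a group was alike, 0.24 with LPS and 0.21 with PBS. LPS replicate 1 was the lower array for *Rnf5*, *Rnf34*, *Rnf126*, *Rnf146* and *Rnf6*, and the higher for *Lonrf3*, *Rnf166* and *Rnf212*. The part of the lower brightness of this array in these gaps was not tested.

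Several probes were present for 12 members. The probes shared the sign of the change except in *Rnf165*, where the brightest probe, above background on all arrays, had 0.63 and the other, above background on none, had −0.74. Among the others, the size differed most for *Lonrf3* (−2.43 and −0.97) and *Rnf139* (1.58 and 0.61), and for *Rnf41* the dimmer probe was the lower one (−0.51 and −1.02). When every probe was fitted on its own, with adjustment over all probes, 7 members had a probe that rose and 0 had one that fell. The share over all probes is not given for this fit, so these counts describe the members only.

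**Figure D5:**
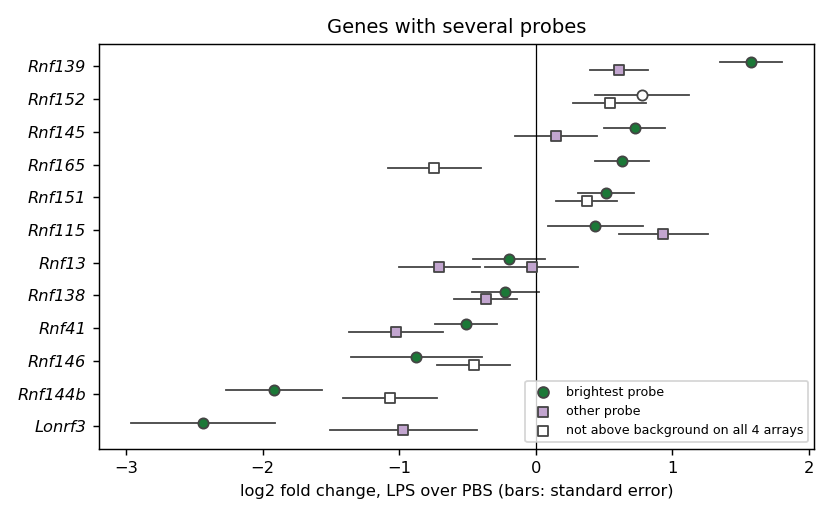
Log2 fold change of LPS over PBS (x axis, bars give the SE) for each probe of the 12 members with several probes. Circles are the brightest probe, which stands for the gene, squares the others, and open symbols were not above background on all 4 arrays. *Rnf165* has probes on both sides of 0.

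Enzymes and partners that RNF ligases work with were read from a list of 36 genes, chosen with earlier results known. Of these, 34 were measured, 5 rose and 0 fell, with a median log2 fold change of 0.17. The shares over all genes were 3.22% that rose and 2.32% that fell, with a median of 0.04. The RNA sensors rose, *Ifih1* (MDA5) by 5.05 ± 0.25 (SE, adjusted p = 0.003) and *Ddx58* (RIG-I), the substrate of *Rnf135*, by 3.74 ± 0.21 (SE, adjusted p = 0.003). *Ube2l6*, the E2 of the ubiquitin-like protein ISG15, rose by 3.24 ± 0.24 (SE, adjusted p = 0.006). *Tnfaip3* (A20), which the study also chose on these samples, and *Tnip1*, a partner of A20 that binds linear chains, rose by 2.49 ± 0.34 (adjusted p = 0.025) and 2.66 ± 0.22 (adjusted p = 0.007).

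The partners of *Rnf31* did not pass with it. *Rbck1* (HOIL-1) had a change of 0.37 ± 0.23 (SE, adjusted p = 0.364) and *Sharpin* one of −0.995 ± 0.24 (SE, adjusted p = 0.085). *Ube2l3*, the E2 that serves RBR ligases, had −1.23 ± 0.29 (SE, adjusted p = 0.078), and *Otulin*, which cuts linear chains, had −0.45 ± 0.36 (SE, adjusted p = 0.462). The differences between *Rnf31* and these genes were not tested. The adaptor *Mavs* had a change of −0.07 (adjusted p = 0.866) and the kinase *Tbk1* one of 0.95 (adjusted p = 0.064).

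The TRIM ligases are the other large RING family with innate immune members. Of 61 *Trim* genes, 8 rose and 0 fell, where 3.22% of all genes rose and 2.32% fell. Their median log2 fold change was 0.12 and the largest was 6.35. In the RNF family 7 of 80 rose and 2 fell, with a median of 0.05 and a largest change of 3.29. The median size of the change was 0.56 in the RNF and 0.39 in the *Trim* genes. Of the *Trim* genes 21 were above background on no array, against 9 RNF members. The difference between the families was not tested.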

How the data were processed

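The deposited table holds raw signal intensity per probe and array (linear), a detection p-value by the authors and a spot flag of unstated meaning. The sources used here name no scanner, image software or background method. Since 60 signals of LPS replicate 1 lie at or below 0, they were taken as background-subtracted. A second table by the authors holds the same intensity values times a constant per array (0.869 to 1.29). Of 26423 probes, 22815 had a single symbol, updated through RefSeq synonyms, 246 had several and 3362 had none.

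Quantile normalization between arrays was followed by log2 conversion. The brightest probe stood for a gene. LPS and PBS were compared with limma 3.58.1 (lmFit, eBayes) in R 4.3.3 (statmod 1.5.0). Adjustment was by Benjamini-Hochberg across 19938 genes, with no filter on dim probes and an adjusted p threshold of 0.05. The fit has 2 residual and 3.11 prior degrees of freedom, so the number of arrays limits the precision. The script was tested on simulated data.

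For *Rnf144a* and *Rnf212*, a fold set the treated mean against the lowest signal above background on each PBS array. It is no strict lower bound. Promoters and motif matches come from the RefSeq table of GRCm38.p6. The members, role groups and lists were chosen with earlier results of these data known. The 56 members named are the 35 of a rule (all that passed, the 8 largest rises and 8 largest falls above background on both arrays of a group, all *Lonrf* genes, the innate sensing group, and the 2 brightest of each other role group) and 21 others, named after their values were seen. Some genes are counted, but their own values are left out of the text and of the plot of all members. Alternatives covered background correction, scaling, the second table, filters, probes, a replicate block, the t-test of the methods, the variance model and leaving out each array.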

Additional observations from a re-analysis of the deposited data

How the results depend on the processing

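Of 892 values of single members under alternatives, 785 kept their direction and side of the threshold, 20 gained a call and 25 changed sign. The other 62 lost a call. Only the 9 called members had a call to lose, so the 892 do not measure how stable the calls are. Of these 9, 4 kept the call with 75th percentile scaling, 3 with no scaling and 2 with the second deposited table. With the methods' t-test after adjustment 0 kept it. It was kept by 7 with cyclic loess or the mean of all probes. All 9 kept it with the replicate block or without dim probes. None of the 9 changed sign in any alternative. Members that rose numbered 7 with quantile normalization, 4 with 75th percentile scaling, 1 with no scaling, 2 with the second deposited table, 0 with the methods' t-test after adjustment, 17 with it at an unadjusted p under 0.05, and 0 to 5 with an array left out. Members that fell numbered 2, then 0 with 75th percentile scaling, 0 with cyclic loess, 0 with the second table, 0 with every probe fitted on its own, 1 with the mean of all probes, 1 with an intensity trend and robust prior, 0 and 5 with the t-test adjusted and unadjusted, and 0 to 3 with an array left out. With the adjusted t-test 0 of all 19938 genes passed. At an unadjusted p under 0.05, the t-test gave 2266 genes higher and 1453 lower. Among all genes, 642 rose and 462 fell with quantile normalization, and 398 and 131 with 75th percentile scaling. The counts were 254 and 178 with no scaling, 327 and 111 with the second table, and 532 and 259 with cyclic loess. They were 666 and 481 with the mean of all probes, and 634 and 435 with an intensity trend and robust prior. The members' median log2 fold change of 0.05 became 0.107 with 75th percentile scaling, −0.24 with no scaling (where the median of all genes was −0.35), −0.047 without dim probes, 0.0058 with the mean of probes, and −0.014 to 0.13 with an array left out. With the replicate number as a block, 7 rose and 3 fell, *Lonrf3* being added; the replicate differences of the groups correlated at 0.239 across genes, and 2 pairs do not show that the numbers pair the samples.

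Sign changes concerned members that did not pass. With 75th percentile scaling they were *Rnf13* (0.032), *Rnf20* (0.10), *Rnf34* (0.083) and *Rnf44* (0.00021); with cyclic loess *Rnf20* (0.061) and *Rnf34* (0.041); with the second table *Rnf20* (0.026), *Rnf34* (0.0087) and *Rnf40* (−0.011); with no scaling *Rnf11* (−0.10), *Rnf216* (−0.23), *Rnf40* (−0.29) and *Rnf6* (−0.13); and with the mean of probes *Rnf165* (−0.054). With an array left out the values ran from −0.18 to 0.28 for *Rnf11*, −1.10 to 0.072 for *Rnf126*, −0.42 to 0.037 for *Rnf13*, −0.45 to 0.0033 for *Rnf138*, −0.10 to 0.020 for *Rnf20*, −0.94 to 0.85 for *Rnf34*, −0.17 to 0.28 for *Rnf40* and −0.58 to 0.97 for *Rnf6*. The cause of these changes was not tested.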
